A study of Homo sapiens with 12 samples.

Results

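The heat shock proteins of the HSP70 and HSP110 families and the transcription factor HSF1 were examined in SHI-1 cells treated with disulfiram (DSF), niclosamide (NSM) or both drugs. The members were the 10 genes listed under the names HSPA1A, HSPA1B, HSPA6, HSPH1, HSPA8, HSPA4, HSPA4L, HSPA13, HSPA14 and HSF1, out of 14866 genes listed for each library. They were split by textbook knowledge into 4 inducible chaperones (HSPA1A, HSPA1B, HSPA6 and HSPH1), 5 constitutive chaperones (HSPA8, HSPA4, HSPA4L, HSPA13 and HSPA14) and HSF1. All 10 were among the 13502 genes tested, which reached a normalized count of 10 in 3 or more libraries.

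SHI-1 cells derive from an acute myeloid leukemia and carry the MLL-AF6 fusion. RNA was sequenced after 16 h in 4 groups of 3 libraries, each from an independent experiment: the solvent DMSO, DSF (0.3 µM disulfiram with 1 µM copper), NSM (5 µM niclosamide), and DSF+NSM, in which the doses of both treatments were combined. The study asked whether the combination changes gene expression beyond either drug. Whether the DMSO and NSM groups received copper is not stated in the sources used here, and the labels and the study's methods name different culture media. All libraries come from 1 cell line, so replicates are repeats of the treatment and not separate donors.

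HSP70 proteins are ATP-driven chaperones that hold unfolded stretches of other proteins and release them for refolding. J-domain proteins deliver clients to them, and HSP110 proteins and BAG proteins exchange their nucleotide. HSF1 is kept inactive by chaperones in unstressed cells, and when unfolded proteins accumulate it forms trimers and binds heat shock elements, which are inverted repeats of the letters GAA, in the promoters of the inducible chaperone genes.

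An estimated 10.2 to 19.0 M reads stood behind each library, and the normalized counts of a library summed to 13.96 to 14.4 M for DMSO, 14.9 to 15.3 M for DSF, 16.5 to 17.5 M for NSM and 22.7 to 25.6 M for the combination. The 9 myeloid markers examined (among them MPO, SPI1 and CD33) were at 10 or more in every library, and their summed level ranged from 62114 to 71043 in DMSO, 40298 to 47121 in DSF, 25118 to 32545 in NSM and 30187 to 32122 in DSF+NSM. Most of this sum is MPO, an enzyme of myeloid granules, which ranged from 54162 to 62640 in DMSO and from 14453 to 36629 in the treated libraries, and LYZ was lower in every treated library as well. SPI1, ITGAM, CD14 and CD68 were instead higher in every treated library than in every DMSO library. CD14, a monocyte receptor, ranged from 54.0 to 64.8 in DMSO, 321 to 431 in DSF, 109 to 223 in NSM and 272 to 377 in DSF+NSM. The part of these markers in the results below was not tested. Of the B cell, T cell, erythroid, and epithelial and stromal markers, 1 of 4, 1 of 3, 0 of 3 and 0 of 3 were at 10 or more in every library. A smaller number of cells of a kind and less RNA per cell cannot be told apart in such bulk samples. NSM replicate 3 stood apart from the other NSM libraries, with Spearman correlations across genes of 0.939 and 0.950 where replicates 1 and 2 gave 0.994. The members' log2 changes with NSM are therefore given with and without NSM replicate 3. To a lesser degree DSF+NSM replicate 3 stood apart too, at 0.980 with each other library of its group where replicates 1 and 2 gave 0.991. It also had the fewest estimated reads (10.2 M). Scaling all libraries to equal sums moved the median log2 change of all genes from 0.03 to -0.75 in DSF+NSM against DMSO and from 0.01 to -0.25 in NSM against DMSO. The split of called genes in DSF+NSM against DMSO then moved from 3816 higher and 3309 lower to 1526 higher and 7608 lower, so small changes in DSF+NSM depend on the scaling. The corresponding split in NSM against DMSO moved from 3430 higher and 3205 lower to 2219 higher and 4529 lower.

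DSF raised 3 of the 4 inducible chaperones, NSM alone lowered all 4, and DSF+NSM raised all 4 to levels far above those with DSF. In DSF against DMSO 5 of the 10 members were called (3 higher, 2 lower), beside 17.8% of all genes tested. In NSM against DMSO 5 members were called, all lower, beside 49.1% of all genes (3430 higher and 3205 lower). The number called with NSM was thus near the share of all genes. In DSF+NSM against DMSO 7 members were called, all higher, beside 52.8% of all genes (3816 higher and 3309 lower). These 3 comparisons share the DMSO libraries. With equal sums the calls in DSF+NSM against DMSO were 5 higher and 1 lower, beside 9134 of 13523 genes called. The log2 changes of HSPA1A, HSPA1B, HSPA6 and HSPH1 were then 8.96, 8.34, 12.02 and 3.79, each smaller than the value given below. Without NSM replicate 3 the calls in NSM against DMSO were 1 higher and 7 lower, beside 8075 of 13502 genes called, so calls rose among all genes too. The word called means an adjusted p (Benjamini-Hochberg) under 0.05 in limma, which was fitted to log2(normalized count + 1) of all 12 libraries, and fold changes below are on that scale with the standard error (SE).

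**Figure D1:**
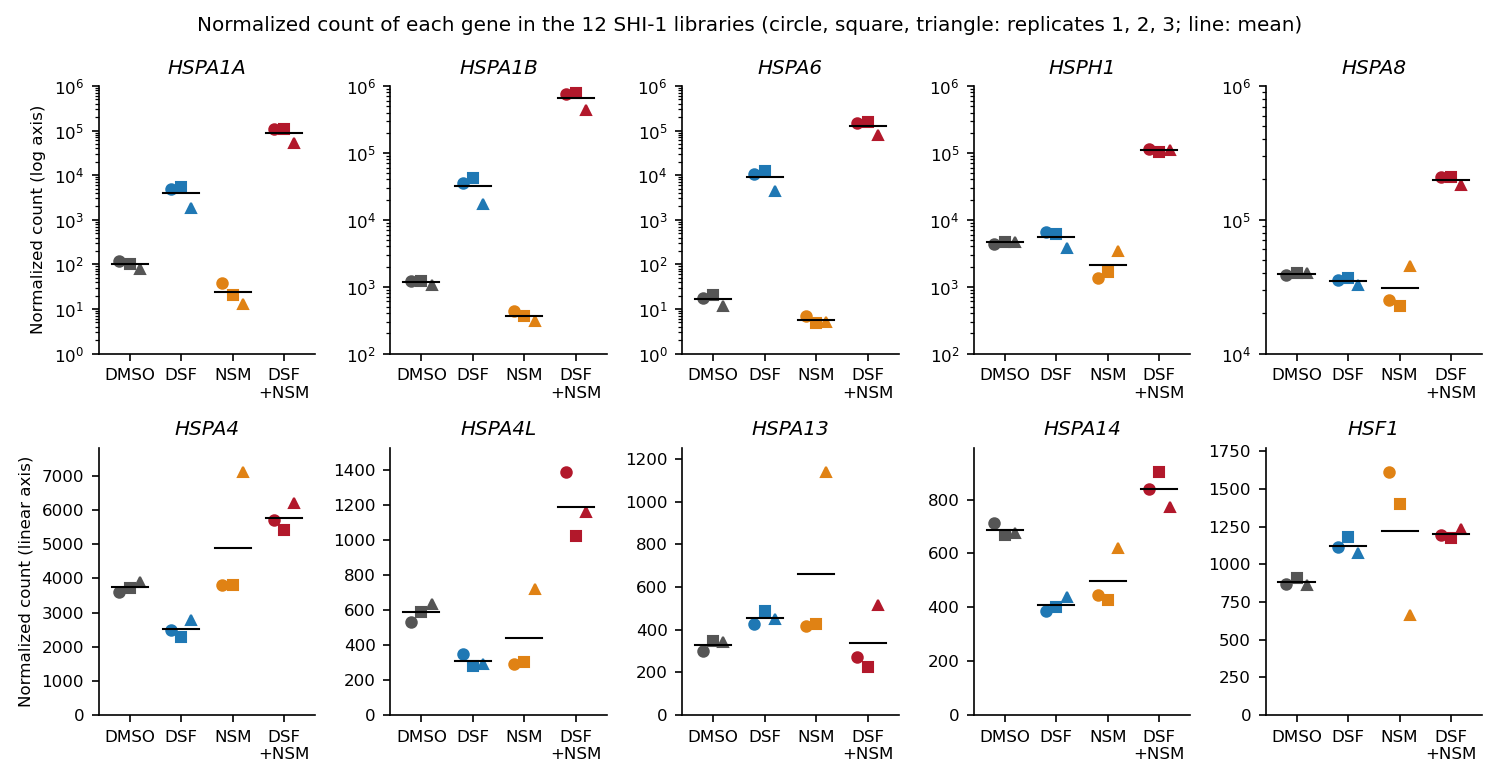
Normalized count of each gene (vertical axis, logarithmic in the upper row and linear from 0 in the lower row) in the libraries of the 4 groups, with circle, square and triangle for replicates 1, 2 and 3 and a line at the group mean. The 4 inducible genes and HSPA8 lie highest in all 3 DSF+NSM libraries, whereas NSM replicate 3 lies above the other NSM libraries for HSPH1, HSPA8, HSPA4, HSPA4L, HSPA13 and HSPA14 and below them for HSF1.

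HSPA1A (ENSG00000204389, GRCh38 chr6:31815543-31817946, plus strand) and HSPA1B (ENSG00000204388, chr6:31827738-31830254, plus strand) are single-exon genes that encode practically the same stress-inducible HSP70 protein. HSPA1A stood at 121, 104 and 77.4 in the DMSO libraries, at 4939, 5500.0 and 1801 in DSF, at 37.3, 20.3 and 12.8 in NSM, and at 108681, 109561 and 52688 in DSF+NSM. No 2 groups overlapped, and replicate 3 was the lowest library in every group. HSPA1A rose by 5.19 ± 0.45 (SE) on the log2 scale with DSF (36.6-fold, adjusted p = 1.29e-05), fell by 2.16 ± 0.45 with NSM (adjusted p = 0.00185) and rose by 9.74 ± 0.45 with DSF+NSM (856-fold, adjusted p = 1.10e-08). Without NSM replicate 3 the change with NSM was -1.81 (adjusted p = 0.0264).

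HSPA1B, with the larger deposited count of the pair, stood at 1219, 1201 and 1040.1 in DMSO and at 35831, 42318 and 16974 in DSF. It stood at 428, 362 and 303 in NSM, and at 753236, 794172 and 442073 in DSF+NSM. Its 4 groups did not overlap either, and replicate 3 was again the lowest library of each. The rise was 4.68 ± 0.30 with DSF (25.6-fold, adjusted p = 1.31e-06) and 9.12 ± 0.30 with DSF+NSM (557-fold, adjusted p = 6.75e-10). With NSM it fell by 1.67 ± 0.30 (adjusted p = 0.000707), and without NSM replicate 3 by 1.54 (adjusted p = 0.00891).

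Reads cannot be assigned freely between these copies. Of the 43-base stretches of the HSPA1A transcript, the length of 1 read, 75.6% also occur in another gene, and 1782 of 2358 occur in HSPA1B. HSPA1B shares 73.7% of its stretches, and 920 of its bases overlap ENSG00000285565 on the same strand. HSPA1A held 6.93% to 9.04% of the pair's summed count in DMSO, 9.59% to 12.1% in DSF, 4.05% to 8.02% in NSM and 10.6% to 12.6% in DSF+NSM, so the split between the copies moved much less than their level. Summed to a single row, which does not depend on that split, the pair stood at 1339.7, 1305 and 1118 in DMSO, at 40770.4, 47818 and 18775 in DSF, at 465, 383 and 316 in NSM, and at 861917, 903733 and 494761 in DSF+NSM. How reads that match both copies were counted is uncertain, and if any were left out the sum lacks them too. The sum changed by 4.73 ± 0.31 with DSF, by -1.70 ± 0.31 with NSM and by 9.18 ± 0.31 with DSF+NSM (limma adjusted p = 1.75e-06, 0.000785 and 8.51e-10), and without NSM replicate 3 by -1.56 with NSM (adjusted p = 0.0106).

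HSPA6 (ENSG00000173110, chr1:161524540-161526894, plus strand), also a single-exon gene, encodes a strictly inducible HSP70 protein that unstressed cells hardly express. It stood at 17.7, 20.4 and 11.8 in DMSO, at 10639, 12539 and 4433 in DSF, at 6.87, 4.84 and 5.11 in NSM, and at 149856, 153117 and 78927 in DSF+NSM. The low levels rest on few molecules, an estimated 12 to 27 reads per DMSO library and 4 to 7 per NSM library. The gene rose by 8.93 ± 0.37 with DSF (488-fold, adjusted p = 1.88e-08) and by 12.79 ± 0.37 with DSF+NSM (7081-fold, adjusted p = 1.57e-10), the rank 2 change from the top among 13502 genes in either comparison. With NSM it was lower in all 3 libraries, by 1.39 ± 0.37 (adjusted p = 0.00759) and without replicate 3 by 1.34 (adjusted p = 0.0466), but with a pseudocount of 10 the call was lost (-0.76, adjusted p = 0.0859). Of its 43-base stretches 49.8% also occur in HSPA7, a pseudogene of the same family, which held 0.211% to 0.265% of the summed count of both genes in DSF+NSM and 22.9% to 53.8% in DMSO.

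HSPH1 (ENSG00000120694, chr13:31134973-31162388, minus strand, 18 exons) encodes the inducible HSP110 protein, a nucleotide exchange factor of HSP70. It stood at 4286, 4725 and 4717 in DMSO, at 6592, 6128 and 3843 in DSF, at 1359, 1643 and 3411 in NSM, and at 112619.9, 104646 and 109847 in DSF+NSM. DSF and DMSO libraries overlapped, since DSF replicate 3 was below all DMSO libraries and the other DSF libraries were above them. The DSF value was 0.23 ± 0.28 (adjusted p = 0.612), with a 95% interval from -0.38 to 0.85, far below the changes of HSPA1A, HSPA1B and HSPA6. HSPH1 fell by 1.22 ± 0.28 with NSM (adjusted p = 0.00365), by 1.61 without NSM replicate 3 (adjusted p = 2.74e-06), and rose by 4.58 ± 0.28 with DSF+NSM (23.8-fold, adjusted p = 1.09e-07). In DSF+NSM replicate 3 lay between the other libraries for HSPH1, whereas for HSPA1A, HSPA1B and HSPA6 it was well below them.

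The promoters of the 3 genes that DSF raised, and of HSPA8, are shown, and heat shock elements can be read in their windows. HSPA4L, which was lower with DSF, also holds such an element and is not shown. HSPH1, which changed more than HSPA8, has none in its window and is not shown either. RefSeq windows of 300 bases (GRCh38.p14, from 250 before to 50 after an annotated start) were at hand for 8 of the 10 members, in 10 windows. A 2-unit element (GAANNTTC or TTCNNGAA) was searched on both strands and occurs in 13.5% of 35116 such windows of all genes, a 3-unit element (GAANNTTCNNGAA or TTCNNGAANNTTC), which contains 2 overlapping 2-unit elements, occurs in 0.490%, and the CCAAT box (CCAAT or ATTGG) occurs in 34.6%. Capitals mark the units of the heat shock elements. The upstream parts of HSPA6 (chr1:161524290-161524539, plus strand), HSPA1A (chr6:31815293-31815542, plus strand) and HSPA1B (chr6:31827488-31827737, plus strand) lie outside annotated exons. For HSPA8, whose window lies in exons of alternative transcripts, 30 bases around each element are shown (distal, chr11:123062345-123062374, and proximal, chr11:123062170-123062199, minus strand). All are written from 5′ to 3′ on the strand of the gene:
HSPA6: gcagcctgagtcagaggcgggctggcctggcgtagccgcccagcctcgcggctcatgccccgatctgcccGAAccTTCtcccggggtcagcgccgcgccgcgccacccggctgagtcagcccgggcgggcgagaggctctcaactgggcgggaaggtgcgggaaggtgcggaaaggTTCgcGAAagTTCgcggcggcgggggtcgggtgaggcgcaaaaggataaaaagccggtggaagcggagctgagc
HSPA1A: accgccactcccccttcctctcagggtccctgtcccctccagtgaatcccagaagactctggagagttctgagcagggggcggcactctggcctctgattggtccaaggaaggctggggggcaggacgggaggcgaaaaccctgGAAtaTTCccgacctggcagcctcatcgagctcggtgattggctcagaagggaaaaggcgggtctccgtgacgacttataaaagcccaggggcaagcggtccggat
HSPA1B: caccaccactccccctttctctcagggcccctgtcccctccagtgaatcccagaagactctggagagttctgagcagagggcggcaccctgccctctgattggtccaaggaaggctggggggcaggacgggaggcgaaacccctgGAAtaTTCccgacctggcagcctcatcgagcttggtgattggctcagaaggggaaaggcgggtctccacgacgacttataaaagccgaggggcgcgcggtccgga
HSPA8 distal element: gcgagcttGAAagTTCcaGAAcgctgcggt
HSPA8 proximal element: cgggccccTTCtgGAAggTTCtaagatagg

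HSPA6 holds a 3-unit element that begins 74 bases upstream of its start and a separate 2-unit element at 180 bases. HSPA8 holds 3-unit elements at 230 and 55 bases and CCAAT boxes at 129 and 99 bases. HSPA1A and HSPA1B, whose windows are identical at 277 of 299 positions (92.6%) when shifted by 1 base, each hold a single 2-unit element, at 106 and 105 bases, between CCAAT boxes at 153 and 69 bases in HSPA1A and at 152 and 68 bases in HSPA1B. In HSPA4L 1 of its 3 windows, that at the start of its main transcript (127782322), holds a 2-unit element, at 170 bases. The windows of HSPA4, HSPA13 and HSPH1 hold none. The HSPH1 window surrounds the most distal annotated start (31162388), whereas its main transcript starts at 31161904. These matches describe letters in the windows and are not measurements of binding.

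HSPA8 (ENSG00000109971, chr11:123057489-123063230, minus strand, 9 exons) encodes HSC70, the constitutive HSP70 of the cytosol, and ranked 25 of 14866 genes by normalized count in DMSO. It stood at 38506, 39853 and 39824 in DMSO, at 35602, 36503 and 32407 in DSF, at 25187, 22822 and 44992 in NSM, and at 208974, 209304 and 180594 in DSF+NSM. DSF+NSM libraries were above all others, DSF libraries were slightly below the DMSO libraries, and NSM replicate 3 was above the DMSO libraries where the other NSM libraries were below them. HSPA8 rose by 2.34 ± 0.20 with DSF+NSM (5.06-fold, adjusted p = 1.45e-06), and by 1.55 with equal sums (adjusted p = 1.32e-05). With DSF its value was -0.18 ± 0.20 (adjusted p = 0.576), with NSM -0.41 ± 0.20 (adjusted p = 0.103), and without NSM replicate 3 it fell by 0.72 with NSM (adjusted p = 1.49e-05). Among its 43-base stretches 25.4% also occur in other genes, which include processed pseudogenes of HSPA8, so its level is less certain than those of HSPH1, HSPA4 and HSPA13, which share none.

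HSPA4 (ENSG00000170606, chr5:133052013-133106449, plus strand, 19 exons) and HSPA4L (ENSG00000164070, chr4:127781821-127840733, plus strand, 19 exons) encode the other cytosolic HSP110 proteins. HSPA4 stood at 3606, 3710.0 and 3902 in DMSO, at 2479, 2278 and 2790.2 in DSF, at 3798, 3796 and 7124 in NSM, and at 5698, 5412 and 6218 in DSF+NSM. HSPA4L stood at 534, 590.0 and 636 in DMSO, at 351, 280.2 and 293 in DSF, at 291, 304 and 721 in NSM, and at 1389.9, 1023 and 1159.9 in DSF+NSM. For both genes the DSF libraries were below and the DSF+NSM libraries above every DMSO library, whereas the NSM libraries spread around them.

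HSPA4L fell by 0.93 ± 0.28 with DSF (adjusted p = 0.0407), and HSPA4 was at -0.58 ± 0.20 (adjusted p = 0.0678). Both values were near the threshold. Leaving out any single DMSO, DSF or DSF+NSM library ended the HSPA4L call (adjusted p from 0.0526 to 0.146), and without NSM replicate 3 both genes fell (adjusted p = 5.16e-05 for HSPA4L and 0.000124 for HSPA4). With DSF+NSM HSPA4 rose by 0.63 ± 0.20 (adjusted p = 0.0203) and HSPA4L by 1.01 ± 0.28 (adjusted p = 0.00960). With equal sums these values were -0.16 (adjusted p = 0.507) and 0.23 (adjusted p = 0.485), so both calls depend on the scaling and the direction of HSPA4 does as well. The HSPA4 call was also lost without DMSO replicate 1 (0.60, adjusted p = 0.0598), DMSO replicate 2 (0.62, adjusted p = 0.0539) or DSF+NSM replicate 3 (0.57, adjusted p = 0.0640). With NSM the values were 0.33 ± 0.20 for HSPA4 (adjusted p = 0.202) and -0.55 ± 0.28 for HSPA4L (adjusted p = 0.128). Without NSM replicate 3 they were 0.02 (adjusted p = 0.857) and -0.97 (adjusted p = 2.91e-05).

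HSPA14 (ENSG00000187522, chr10:14838306-14871741, plus strand, 14 exons) encodes an HSP70-like protein that works at the ribosome with the J-domain protein DNAJC2. It stood at 712, 670.2 and 677 in DMSO, at 385, 401 and 437 in DSF, at 445, 428 and 619.6 in NSM, and at 839.8, 903 and 772 in DSF+NSM. Both single drugs left every library below the DMSO libraries, and DSF+NSM left every library above them. HSPA14 fell by 0.75 ± 0.15 with DSF (adjusted p = 0.00598) and by 0.48 ± 0.15 with NSM (adjusted p = 0.0199, and a fall of 0.65 without NSM replicate 3, adjusted p = 9.70e-05). With DSF+NSM the value was 0.28 ± 0.15 (adjusted p = 0.137), which turned to -0.50 (adjusted p = 0.00991) with equal sums. The call with NSM was lost without DMSO replicate 1 or 3 or without NSM replicate 1 or 2 (adjusted p from 0.0501 to 0.0776). It was also lost in limma when only NSM and DMSO were fitted (-0.48, adjusted p = 0.0801). HSPA14 shares 318 bases with MSANTD7 on the same strand. Whether reads were counted by strand is not stated in the sources used here, and HSPA8, HSPA4L, HSF1 and HSPA14 also share 555, 719, 137 and 36 exon bases with genes of the opposite strand, whose reads cannot then be told apart.

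HSPA13 (ENSG00000155304, chr21:14371115-14383484, minus strand, 5 exons) encodes a short HSP70-like protein of the microsomal fraction that lacks the client-binding domain. It stood at 300.5, 345 and 343 in DMSO, at 428, 489 and 452 in DSF, at 416, 427 and 1140.4 in NSM, and at 273, 227 and 515 in DSF+NSM. Every DSF and NSM library was above the DMSO libraries, and the DSF+NSM libraries lay on both sides of them. In the comparisons with DMSO it was not called, with values of 0.47 ± 0.36 with DSF (adjusted p = 0.401), 0.84 ± 0.36 with NSM (adjusted p = 0.0725) and -0.05 ± 0.36 with DSF+NSM (adjusted p = 0.913). The value with NSM passed the threshold without NSM replicate 1 (1.08, adjusted p = 0.0342), NSM replicate 2 (1.06, adjusted p = 0.0435) or DSF+NSM replicate 3 (0.84, adjusted p = 0.0497). Its NSM mean rests on replicate 3, without which the value with NSM was 0.36 (adjusted p = 0.224).

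HSF1 (ENSG00000185122) itself moved little. It stood at 873, 912 and 861 in DMSO, at 1116, 1183 and 1076 in DSF, at 1615, 1398 and 663 in NSM, and at 1197, 1177 and 1236 in DSF+NSM. All DSF and DSF+NSM libraries were above the DMSO libraries, whereas NSM replicate 3 was below them and the other NSM libraries were above. None of the 3 comparisons with DMSO called it, with values of 0.35 ± 0.25 in DSF (adjusted p = 0.356), of 0.38 ± 0.25 in NSM (adjusted p = 0.230) and of 0.45 ± 0.25 in DSF+NSM (adjusted p = 0.148). The 95% interval for DSF+NSM reached from -0.09 to 0.99, so at most about a doubling fits inside it. Without NSM replicate 3, whose spread enters every comparison, HSF1 passed the threshold with DSF (adjusted p = 0.00394), with NSM (0.77, adjusted p = 5.49e-06) and with DSF+NSM (adjusted p = 0.000244). With equal sums the DSF+NSM value turned to -0.34 (adjusted p = 0.259). RNA levels do not report the activity of the HSF1 protein, which was not measured.

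**Figure D2:**
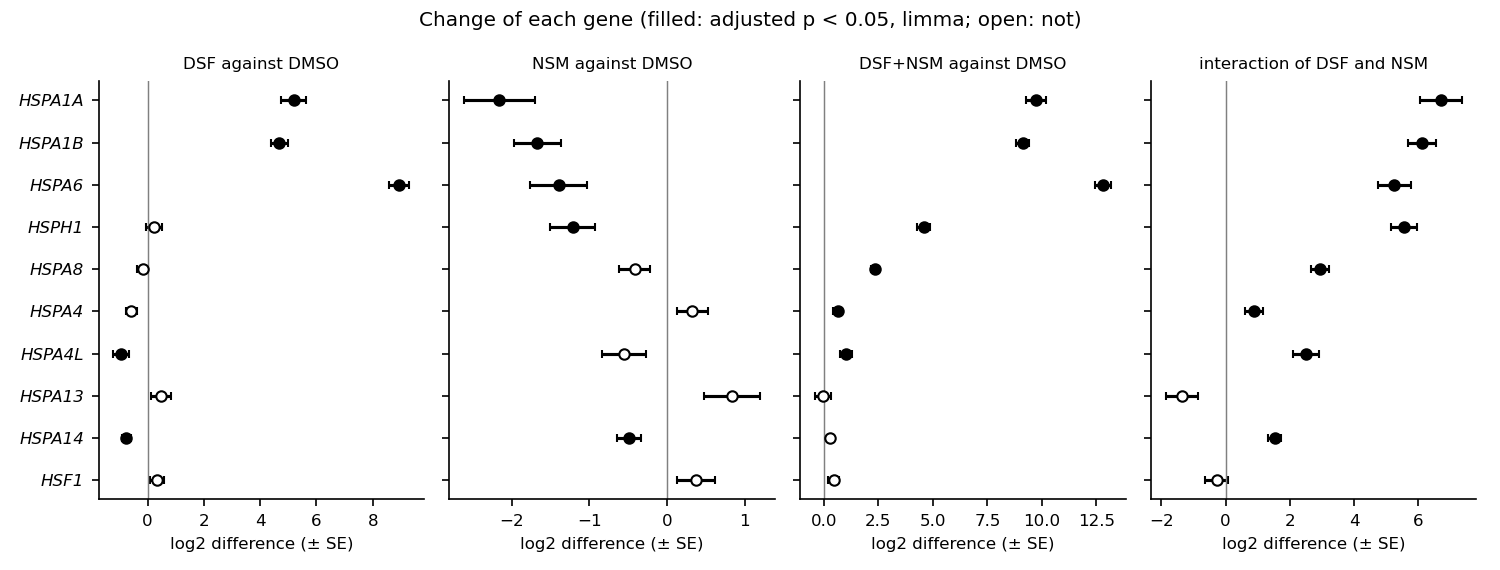
Log2 difference of each gene with its SE (horizontal axis, different range in each panel) for DSF, NSM and DSF+NSM against DMSO and for the interaction, with filled points where the adjusted p was under 0.05. The inducible genes lie right of 0 with DSF+NSM and left of 0 with NSM, and only HSPA13 and HSF1 have an interaction below 0, neither of them called in this fit.

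Compared per kb of the main transcript, HSPA8 was the leading message without drugs, and HSPA1A and HSPA1B together led with both drugs. Levels given for HSPA1A and HSPA1B apart depend on how their shared reads were assigned, and those of the pair on whether such reads were counted. The summed normalized count per kb of the 9 chaperones was 20092 ± 380.5 (SD, n = 3) in DMSO. It was 35549 ± 9005 with DSF and 15776 ± 6149 with NSM. With both drugs it was 466006 ± 114795, 23.2 times the DMSO mean at the deposited scaling. HSPA8 made up 86.6% ± 0.0845 of it in DMSO and 86.7% ± 0.654 in NSM, but 45.0% ± 9.97 in DSF and 19.5% ± 3.78 in DSF+NSM. HSPA1A and HSPA1B together made up 2.49% ± 0.269 in DMSO and 1.10% ± 0.484 in NSM, but 38.8% ± 8.20 in DSF and 63.9% ± 4.14 in DSF+NSM. HSPA6 went from 0.0351% ± 0.00937 in DMSO to 10.5% ± 2.73 in DSF and 11.4% ± 1.18 in DSF+NSM. The HSPH1 share stayed between 2.03% and 6.28% in all 12 libraries, while its level per kb was 873 ± 47.9 in DMSO and 20793 ± 772 in DSF+NSM. After HSPA8, the order of levels per kb in DMSO was HSPH1, HSPA4 (783 ± 31.4), HSPA1B (458 ± 39.1), HSF1 (413 ± 12.7) and HSPA14 (389.7 ± 12.8), and the libraries of HSPA1B and HSF1, and of HSF1 and HSPA14, overlapped. HSPA13 (83.6 ± 6.41), HSPA4L (55.3 ± 4.78), HSPA1A (41.9 ± 9.15) and HSPA6 (7.05 ± 1.87) were the lowest, with overlapping libraries of HSPA4L and HSPA1A. Such shares assume equal recovery of all transcripts, and the libraries' scaling cancels in them. All 10 members together took 0.359% to 0.366% of a DMSO library, 0.421% to 0.702% of a DSF library, 0.189% to 0.340% of an NSM library and 3.86% to 5.48% of a DSF+NSM library.

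**Figure D3:**
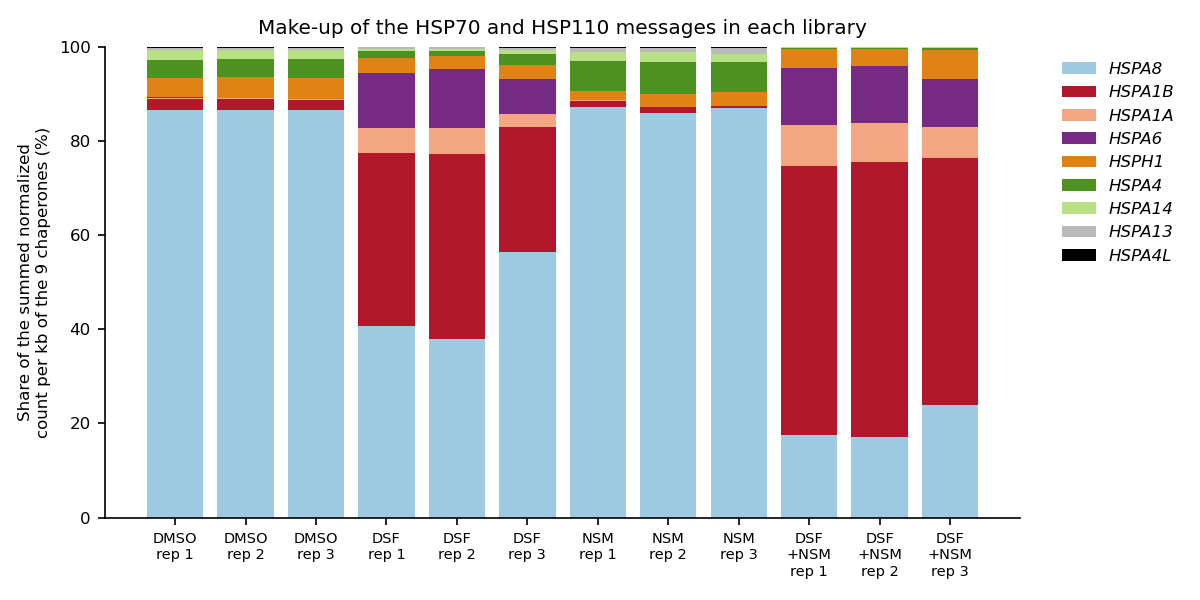
Share of each chaperone gene in the summed normalized count per kb of the 9 chaperones (vertical axis, percent, stacked) in each of the 12 libraries. HSPA8 fills about the same share in all DMSO and NSM libraries, and HSPA1A and HSPA1B together fill the most in all 3 DSF+NSM libraries.

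The interaction, which is the log2 change with DSF+NSM minus the sum of the changes with each drug, was called for 8 of the 10 members, all higher, beside 26.1% of all genes tested (1632 higher and 1895 lower). It was 6.71 ± 0.64 for HSPA1A, 6.11 ± 0.43 for HSPA1B, 5.25 ± 0.52 for HSPA6 and 5.56 ± 0.40 for HSPH1 (limma adjusted p = 4.58e-05, 7.41e-06, 5.72e-05 and 7.56e-06). These values hold a fall with NSM alone: the single-drug changes of HSPA1A sum to 3.04, and the combined change was 9.74. HSPH1 changed by -0.98 as the sum of single drugs and by 4.58 with both. HSPA8 (2.93 ± 0.28, adjusted p = 4.58e-05), HSPA4L (2.49 ± 0.40, adjusted p = 0.000904) and HSPA14 (1.52 ± 0.22, adjusted p = 0.000437) were also called. HSPA4 was near the threshold (0.88 ± 0.29, adjusted p = 0.0398), with adjusted p of 0.0507 to 0.0974 when any 1 library other than NSM replicate 3 was left out and 0.244 with equal sums (0.46). The values of HSPA13 (-1.36 ± 0.51, adjusted p = 0.0692) and HSF1 (-0.28 ± 0.35, adjusted p = 0.597) did not pass, but without NSM replicate 3 both did (-0.88, adjusted p = 0.0419, and -0.67, adjusted p = 0.000520). HSPA13 also passed with equal sums (-1.77, adjusted p = 0.0215) and without NSM replicate 1 (-1.60, adjusted p = 0.0381), NSM replicate 2 (-1.59, adjusted p = 0.0474) or DSF+NSM replicate 3 (-1.70, adjusted p = 0.0225). The interaction with equal sums was called for 7 members as higher and for HSPA13 as lower, beside 4779 of 13523 genes called. The 8 called members stayed called without NSM replicate 3, where 6175 of 13502 genes were called.

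**Figure D4:**
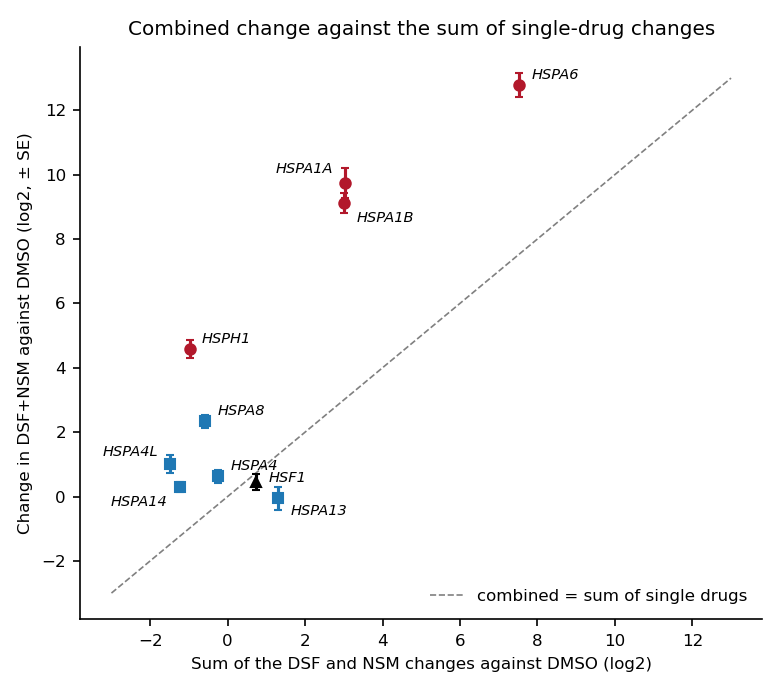
Log2 change with DSF+NSM against DMSO (vertical axis, ± SE) over the sum of the DSF and NSM changes against DMSO (horizontal axis) for the 10 members, with circles for inducible chaperones, squares for constitutive chaperones and a triangle for HSF1. HSPA6, HSPA1A, HSPA1B and HSPH1 lie more than 5 log2 units above the dashed line of equal values, whereas HSPA13 and HSF1 lie below it.

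The treated groups were also compared directly with each other. In DSF+NSM against DSF 8 members were called, all higher, beside 43.1% of all genes (2928 higher and 2890 lower). HSPA1A rose by 4.55 ± 0.45, HSPA1B by 4.44 ± 0.30, HSPA6 by 3.86 ± 0.37 and HSPH1 by 4.34 ± 0.28 (limma adjusted p = 1.22e-05, 8.20e-07, 9.09e-06 and 6.26e-07), that is, by 14.5-fold to 23.4-fold. HSPA8 rose by 2.52 ± 0.20, HSPA4L by 1.94 ± 0.28, HSPA4 by 1.20 ± 0.20 and HSPA14 by 1.04 ± 0.15, and of these HSPA14 lost its call with equal sums (0.35, adjusted p = 0.0556), while HSPA13 was then called lower (-1.21, adjusted p = 0.0144). In DSF+NSM against NSM 7 members were called, all higher, beside 38.6% of all genes (2736 higher and 2476 lower), with values from 0.77 ± 0.15 for HSPA14 to 14.18 ± 0.37 for HSPA6. With equal sums 6 were called higher (beside 7384 of 13523 genes called), HSPA14 lost its call (0.26, adjusted p = 0.165) and HSPA13 was called lower (-1.40, adjusted p = 0.00732). HSPA13 was lower also without NSM replicate 1 (-1.14, adjusted p = 0.0323), NSM replicate 2 (-1.12, adjusted p = 0.0442) or DSF+NSM replicate 3 (-1.24, adjusted p = 0.0190). HSPA4 was not among them (0.30 ± 0.20, adjusted p = 0.259) but was without NSM replicate 3 (0.60, adjusted p = 0.000132), as was HSF1, which was then lower (-0.32, adjusted p = 0.0109). The values without that library were 11.55 for HSPA1A, 10.67 for HSPA1B, 14.13 for HSPA6, 6.19 for HSPH1, 3.05 for HSPA8, 1.99 for HSPA4L and 0.94 for HSPA14, all called. In NSM against DSF 5 members were called, beside 44.4% of all genes: HSPA1A, HSPA1B, HSPA6 and HSPH1 were lower, with log2 differences of -7.35, -6.35, -10.32 and -1.45, and HSPA4 was higher (0.90 ± 0.20, adjusted p = 0.00368). Without NSM replicate 3 these differences were -7.00, -6.22, -10.27, -1.85 and 0.60, all called, and HSPA8 (-0.54, adjusted p = 0.000342) and HSF1 (0.42, adjusted p = 0.00186) passed the threshold as well. HSPA14 was lower with DSF and with NSM than with DMSO, and the 2 drugs did not differ for it beyond the error (0.27 ± 0.15, adjusted p = 0.170, 95% interval from -0.06 to 0.60; 0.10 without NSM replicate 3, adjusted p = 0.455).

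Of 22 other genes of the heat shock response, 7 were higher and 3 lower with DSF, 3 higher and 7 lower with NSM, and 21 higher and 0 lower with DSF+NSM. Their median log2 change was 0.00 with DSF, -0.20 with NSM and 2.90 with DSF+NSM, beside 0.05, 0.01 and 0.03 over all genes. The share of the list called was 45.5% with DSF, where 17.8% of all genes tested were called, 45.5% with NSM beside 49.1% and 95.5% with both drugs beside 52.8%, so the share with NSM was near that of all genes. Without NSM replicate 3 the counts with NSM were 3 higher and 12 lower, beside 8075 of 13502 genes called in that fit. CRYAB, a small heat shock protein, was listed at 0 in all DMSO and NSM libraries, at 83.5 ± 44.1 in DSF and at 896 ± 374 in DSF+NSM. It passed the filter only through the groups where it was high, so its place among the higher genes was partly set by the filter. DNAJB1, the J-domain partner of inducible HSP70, was at 2734 ± 135 in DMSO, 2971 ± 723 in NSM, 22366 ± 8180 in DSF and 586323 ± 102781 in DSF+NSM. It rose with DSF (2.96) and with DSF+NSM (7.73, adjusted p = 6.75e-10), and its value with NSM was 0.09 (adjusted p = 0.787). The 1 gene of this list that DSF+NSM did not change past the threshold was DNAJB4 (0.15, adjusted p = 0.792), which is named after its value was seen.

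Of 15 cochaperones of the HSP70 cycle, 2 were higher and 2 lower with DSF, 4 higher and 5 lower with NSM, and 9 higher and 1 lower with DSF+NSM, with a median of 1.12 in the last. These shares were 26.7%, 60.0% and 66.7%, beside 17.8%, 49.1% and 52.8% of all genes. Without NSM replicate 3 the list had 2 higher and 5 lower with DSF, 3 higher and 6 lower with NSM, and 9 higher and 5 lower with DSF+NSM. Of all 13502 genes, 5551, 8075 and 9137 were called in these fits. With equal sums the DSF+NSM counts were 8 higher and 6 lower, beside 9134 of 13523 genes called. DNAJB1 and BAG3 led the rises. BAG3, a nucleotide exchange factor that links HSP70 to autophagy, was at 281 ± 24.1 in DMSO, 284 ± 20.5 in NSM, 1703 ± 612 in DSF and 33019 ± 9392 in DSF+NSM, a rise of 6.83 with DSF+NSM (limma adjusted p = 2.32e-09). BAG5, another nucleotide exchange factor of the BAG family, was the 1 gene that fell, from 877 ± 57.0 in DMSO to 409 ± 43.5 in DSF+NSM (-1.10, adjusted p = 6.50e-05).

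Among 8 further HSP70 and HSP110 genes 6 were listed and tested. With DSF 3 were higher and 0 lower, with NSM 3 were higher and 1 lower, and with DSF+NSM all 6 were higher, beside the same shares of all genes. HSPA2 and HSPA7 passed the filter only through libraries treated with DSF or DSF+NSM. Counting these 2 genes as higher was therefore partly set by the filter. With equal sums 4 were higher with DSF+NSM and 2 were not called, HSPA9 (0.22, adjusted p = 0.193) and HYOU1, which turned to -0.35 (adjusted p = 0.0720). Of all genes, 9134 of 13523 were called in that fit. HSPA2, a largely testis-expressed HSP70, was at 5.31 ± 1.54 in DMSO and 269 ± 163 in DSF+NSM, and the HSPA7 pseudogene at 8.36 ± 4.66 and 304 ± 109, with the shared stretches of HSPA6 given above. HSPA5 and HYOU1, the HSP70 and HSP110 proteins of the endoplasmic reticulum, and HSPA9, the HSP70 of mitochondria, were higher with NSM, also without NSM replicate 3 (1.60, 1.27 and 0.74). HSPA5 changed by 0.68 with DSF, by 1.70 with NSM and by 2.27 with DSF+NSM (adjusted p = 0.00548, 1.73e-06 and 8.84e-08), and its interaction was -0.12 (adjusted p = 0.692). The interaction of HYOU1 was -1.45 (adjusted p = 0.000397), and -1.55 without NSM replicate 3. Of 4 genes for other heat shock factors and the HSF1 inhibitor HSBP1, 3 were tested. In limma 0 were called with DSF, where HSBP1 had an unadjusted p = 0.0266 (adjusted p = 0.102), and 0 with DSF+NSM, where the lowest unadjusted p was 0.113. With NSM 1 was higher, HSF2 (0.95, adjusted p = 0.00122), also without NSM replicate 3 (0.71). With equal sums 1 of the 3 was called with DSF and 2 with each of NSM and DSF+NSM, beside 2460, 6748 and 9134 of 13523 genes.

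**Figure D5:**
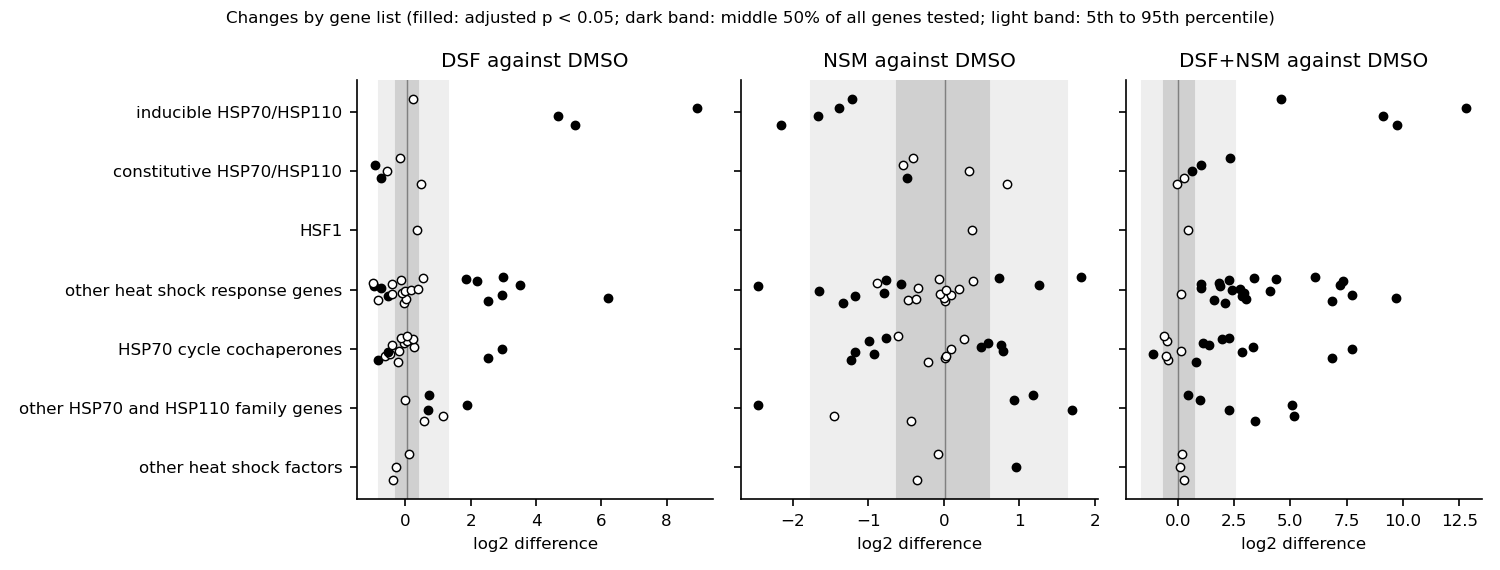
Log2 difference (horizontal axis, different range in each panel) of each tested gene of the member groups and of the other lists in DSF, NSM and DSF+NSM against DMSO, filled where the adjusted p was under 0.05. The inner bands show the interquartile range and the outer bands the 5th to 95th percentile of all genes tested, and the inducible members lie outside the upper end of the outer band with DSF+NSM.

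The genes whose profile over the 12 libraries was most like that of each main member, by Pearson's r of log2(normalized count + 1) among 10785 genes with a mean of at least 50, are given as a description, since the 12 libraries fall into 4 treatment groups that set most of r. For the sum of HSPA1A and HSPA1B they were FAM219A (0.995), CLU (0.991) and TUBB3 (0.990). For HSPH1 they included HSP90AA1 (0.992) and CD83 (0.991), and for HSPA8 they were ZC3HAV1 (0.995), CHORDC1 (0.995) and ATG14 (0.986). HSP90AA1 encodes the inducible cytosolic HSP90. For HSF1 they were MAGED2 (0.977), DHPS (0.976) and UBAC2 (0.975), each with lower values in NSM replicate 3.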

How the data were processed

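RNA of 12 SHI-1 libraries was analysed. The labels name bcl2fastq 2.19, Trimmomatic, Bowtie2, Picard, featureCounts, DESeq2 and hg38 among the tools and builds of the authors, whereas the study's methods name STAR, Salmon and GRCh38, so the route to the values is uncertain. The deposited values are a signal per gene, counts that the authors divided by a factor per library, with 24 libraries named in the header as the basis and 12 of them used here. Between 34.1% and 34.7% of nonzero values were whole multiples of a common step (tolerance 0.02 steps), so reads were only estimated, from that step, and no count model was fitted. Intervals and SEs cover the spread between these libraries.

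Genes at 10 or more in at least 3 libraries were tested as log2(value + 1) with limma 3.58.1 (R 4.3.3), 1 mean per group, moderated variances, two-sided tests and Benjamini-Hochberg adjustment over all 13502 genes. Summaries used Python 3.11.15 with numpy 2.4.6 and pandas 2.3.3, and figures matplotlib 3.10.9. The fit was tested on simulated data. Positions are from GENCODE 44 and promoters from RefSeq, both on GRCh38. Named genes were the 10 members and, for each list, up to 2 called genes with the largest rise and 2 with the largest fall in DSF+NSM against DMSO at a mean of at least 50, plus genes named with their compartment or after their value was seen. Members and lists were chosen with earlier results of these data known. Alternatives were other scalings, filters and pseudocounts, fits to the compared groups, with library weights or with a replicate block, and each library left out. A gene among those most like HSPH1 is not reported here.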

Additional observations from a re-analysis of the deposited data

Results flagged for a closer look

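For 8 genes the effect of DSF differed between cells with and without NSM in limma's interaction test, in log2 units: HSPA1A by 6.71, HSPA1B by 6.11, HSPA6 by 5.25, HSPH1 by 5.56, HSPA8 by 2.93, HSPA4L by 2.49, HSPA14 by 1.52 and HSPA4 by 0.88. The myeloid marker sum, most of it MPO, was lower in every treated library than in the DMSO libraries, whereas the markers SPI1, ITGAM, CD14 and CD68 were higher in every treated library, and the share of ribosomal RNA genes was 9.63% to 11.7% in DSF+NSM against 1.88% to 3.58% in DMSO; their part in these differences was not tested.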

How the results depend on the processing

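The alternatives gave 1656 values for the 77 combinations of a member (or the pair sum) and a comparison, of which 1534 kept direction and side of the threshold, 61 passed it newly, 36 lost it and 25 changed sign. For the pair sum the only alternative counted here was its own fit, so its values could not change and do not test it. With equal sums the DSF+NSM values against DMSO turned to -0.16 for HSPA4, -0.50 for HSPA14 and -0.34 for HSF1, and without ribosomal RNA genes in the sums to -0.032, -0.37 and -0.21. HSF1 turned to -0.59 and -0.50 against DSF, to -0.44 and -0.35 against NSM, and to -0.15 and -0.15 in NSM against DSF, and HSPA4 to -0.21 and -0.12 in DSF+NSM against NSM. Weighting libraries by their own spread turned HSF1 in DSF+NSM against NSM to -0.23, and HSPA4L and HSPA13 in NSM against DSF to -0.050 and -0.078. Leaving out 1 library gave HSPA13 -0.40 to 0.19 in DSF+NSM against DMSO, HSF1 -0.32 to 0.32 in DSF+NSM against NSM, and in NSM against DSF HSPA4L -0.043 to 0.61, HSPA13 -0.11 to 0.61 and HSF1 -0.22 to 0.42; the cause was not tested.

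The number of members called with DSF was 9 with library weights and 9 when only the groups compared were fitted, and with NSM 9 with weights. It ranged from 4 to 8 with NSM and from 4 to 7 with DSF when 1 library was left out, and NSM replicate 3 gave the 8. The all-gene count with DSF, 2405, was 7289 when only DSF and DMSO were fitted, 8171 with weights, 5551 without NSM replicate 3 and 911 to 1391 without any 1 of DMSO replicates 1, 2 and 3 and DSF replicates 1 and 2. The estimation of the weights stopped before full convergence. The fit to the compared groups gave 2473 in place of 5212 in DSF+NSM against NSM and 3970 in place of 5991 in NSM against DSF. With weights the counts were 11107 in NSM against DMSO, 9120 in DSF+NSM against DSF, 9782 in DSF+NSM against NSM, 10369 in NSM against DSF and 8933 for the interaction, which was 6175 without NSM replicate 3.

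Deviations from the group means correlated from -0.06 to 0.28 between libraries of the same replicate number and from -0.23 to 0.24 between others. The ranges overlap, so whether the numbers pair the libraries was not settled. The highest value was that of NSM replicate 3 with DSF+NSM replicate 3 (0.28). A replicate block raised the all-gene count in every comparison, with DSF from 2405 to 2520 and with NSM from 6635 to 6850. With a replicate block in limma HSPA4 passed with DSF (-0.58, adjusted p = 0.0349), as did HSPA13 with NSM (0.84, adjusted p = 0.0302), in DSF+NSM against NSM (-0.89, adjusted p = 0.0288) and in the interaction (-1.36, adjusted p = 0.0291), and no other member's call changed.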
